A study of Mus musculus with 12 samples.

Results

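Mouse bone marrow LT-HSCs, long-term haematopoietic stem cells, were compared by poly-A RNA sequencing between wt animals and animals labelled Jak1 KO, within the libraries whose names carry the letters VD. The members are every gene of the 6 VD libraries, 3 wt and 3 labelled Jak1 KO (called KO libraries from here on, by their label alone) out of 12 libraries in the series, fitted without the other 6, whose names carry ZL. What VD and ZL stand for is not given in the sources used here. All animals were of the C57BL/6 strain and all had received poly(I:C), an interferon-inducing mimic of viral RNA, in 4 doses at 4 to 6 weeks before bone marrow harvest, given to induce deletion of the gene. The wt animals were cre-negative and those labelled Jak1 KO were cre-positive, so that cre itself and the loss of Jak1 cannot be told apart as sources of a difference. Neither the promoter that drives cre nor the exons removed nor the animals' ages are given in those sources.

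LT-HSCs are the rare, mostly dormant marrow cells that can rebuild the whole blood system over the life of an animal. JAK1 is a tyrosine kinase bound to the inner side of cytokine receptors. It signals for the interferon receptors and for many interleukin receptors by phosphorylating STAT transcription factors, which enter the nucleus. Type I interferon acts through a complex of STAT proteins with IRF9 on the interferon-stimulated response element (ISRE), and interferon gamma through STAT dimers on the gamma-activated site (GAS).

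Total counts ran from 8989965 to 16798427 per VD library, and 12903 of 23472 genes passed the filter on low counts. Separate animals behind the libraries of a group are not stated in the labels, and the p-values then describe only the spread between these samples, some of which may be technical. By Xist and Y-linked genes, replicate 2 of each group was female and replicates 1 and 3 were male, so each group held at least 2 animals and the sexes were balanced. Rn45s, the 45S ribosomal RNA precursor gene, made up 14.8% to 22.6% of all counts. The library wt 2 stood apart on the first principal component of the 6 libraries (29.7% of the variance, score -47.0 against -7.51 to 36.4 in the others), and Jak1 KO 2 on the second (27.3%, score 52.8 against -22.4 to -0.73). These are the female libraries. The library wt 2 held the haemoglobin transcript Beta-s at 3234 normalised CPM (counts scaled by library size) against 1.23 to 6.66 in the other 5. Counts of LT-HSC genes were high in both groups, with 2790 and 2677 counts of Procr, 5060 and 5525 of Mecom and 2123 and 2748 of Fgd5 over the 3 wt libraries and the 3 labelled Jak1 KO. Markers of mature cells were scarce, with 1 and 0 counts of the T cell gene Cd3e, 0 and 0 of the NK cell gene Ncr1 and 1 and 3 of the endothelial gene Cdh5. The neutrophil gene S100a8 was present in both groups at 4477 and 4441 counts.

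The KO libraries differed from wt at 149 genes, of which 98 were lower and 51 were higher (edgeR's quasi-likelihood test, Benjamini-Hochberg adjusted p under 0.05 over all 12903 genes). That is 1.15% of the genes tested, 0.760% lower and 0.395% higher, and an unadjusted p under 0.05 was reached by 1756 genes (13.6%). Among the lower genes the median log2 fold change was -0.90, and 45 of them were at -1 or below. The higher genes had a median of 0.76, with 16 at 1 or above. The median over all tested genes was 0.00. For all 98 lower genes the 3 KO libraries were below the 3 wt libraries, an arrangement that 10.1% of all tested genes show. They were above for all 51 higher genes, against 8.88% of all tested genes. Of the 98 lower genes, 42 belong to the lists of interferon-response and MHC genes and 56 do not, while 0 of the 51 higher genes do.

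**Figure D1:**
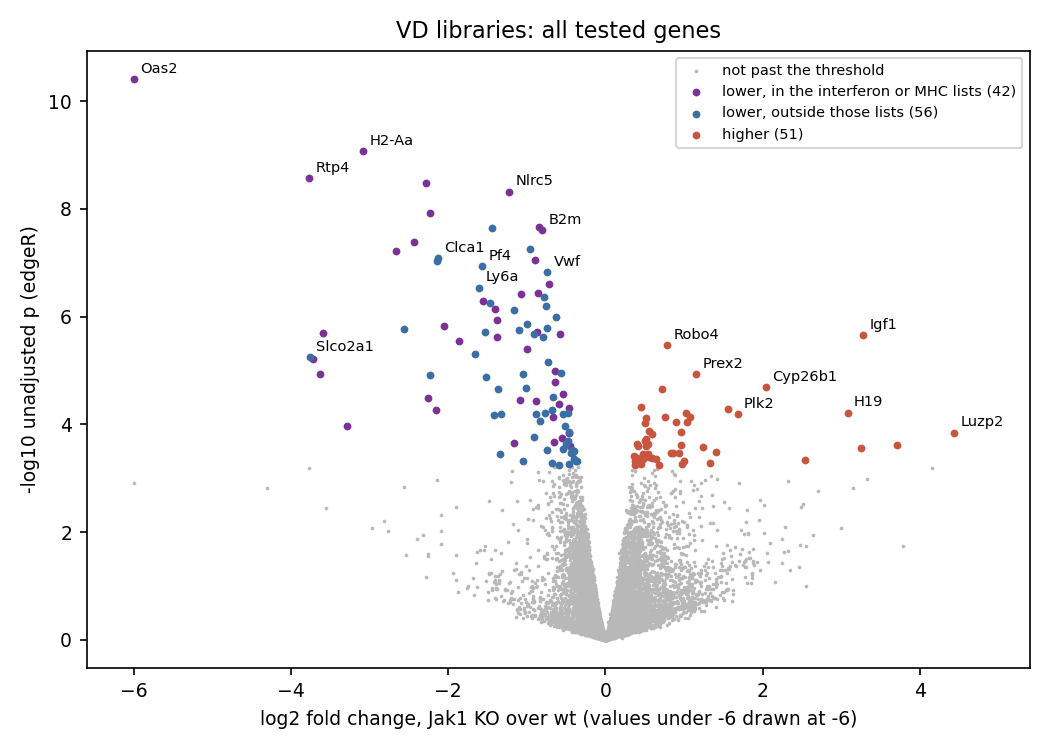
Each point is a gene of the 6 VD libraries, with the log2 fold change (KO libraries over wt) on the x axis and -log10 of edgeR's unadjusted p on the y axis. Coloured points are the 149 genes past the adjusted threshold: 42 lower genes of the interferon and MHC lists, 56 other lower genes and 51 higher genes. Values under -6 are drawn at -6.

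More of the lower than of the higher calls held when single libraries were left out. All 6 such fits kept 52 of the 98 lower genes but 3 of the 51 higher genes, Igf1, Robo4 and Prex2. None of the 6 fits kept Dsc2 or Arhgap4. Without wt 1 the fit kept 53 lower and 6 higher genes, and without Jak1 KO 1 it kept 60 and 12. Without Jak1 KO 2 it kept 97 and 42 and called 305 genes in all, 194 lower and 111 higher. Without wt 2 it kept 76 lower and 16 higher genes, and it called 104 genes in all, 83 lower and 21 higher. DESeq2 called all 98 and all 51 among its 403 calls. With a term for sex in edgeR 390 genes passed, 226 lower and 164 higher, among them 16 that are given with values here as not past the threshold: Irf1, Ifit1, Ifitm1, Mx1, H2-DMa, Plek, Selp, Epor, Fgd5, Mecom, Kcnj5, Hspa5, Meg3, Trib3, Bcl2l1 and Cdk6.

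Jak1 itself was at 324, 319.8 and 297 CPM in wt libraries 1 to 3 and at 353, 389.9 and 372 in KO libraries 1 to 3. All 3 KO libraries lay above all 3 wt libraries. The log2 fold change was 0.24 (SE 0.08, 95% interval 0.07 to 0.42, edgeR adjusted p = 0.195), and an exact two-sided permutation test gave p = 0.1, the smallest that 3 against 3 allows. Since reads from exons outside a floxed segment are counted too, this value does not check the labels. Jak2, a related kinase of haematopoietic cytokine receptors, stood at 142 and 137 CPM (-0.06, adjusted p = 0.813). Jak3, Tyk2, Stat3, Stat5a, Stat5b and Stat6 did not pass either. Of 17 tested receptor genes that signal through JAK1, the interferon receptor genes Ifnar1, Ifnar2, Ifngr1 and Ifngr2 among them, 0 passed with edgeR and 2 had an unadjusted p under 0.05. Their median log2 fold change was 0.09. Of 22 feedback genes such as Socs1, Cish and Pim1, 0 passed with edgeR and 3 had an unadjusted p under 0.05 (median 0.09). In bulk RNA, fewer cells of a type and less RNA per cell cannot be told apart, for any of the genes below.

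Interferon-response genes were lower in the KO libraries, and no member of their lists passed as higher. Of 78 tested effectors of the type I response 18 fell, where 0.760% of all genes did. On the log2 scale the list's median change was -0.37, with 70 of the 78 below 0, against 6349 of all 12903 genes. Of 16 interferon-inducible GTPases 7 fell, with a median of -0.52. Of 8 interferon regulatory factors 2 fell, Irf7 and Irf9, while 5 lay above 0 and the list's median was 0.05.

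Irf9, the DNA-binding subunit of the type I interferon complex (chromosome 14, 55603985 to 55610030, GRCm38), stood at 84.9, 84.2 and 83.6 CPM in wt and at 35.5, 37.7 and 46.3 in the KO libraries. The 3 wt libraries were nearly level with each other and lay well above the other group. The KO level was 2.11-fold lower (-1.08 on the log2 scale, SE 0.12, edgeR adjusted p = 0.000236). Irf7, which drives the amplification of type I interferon genes, went from 20.98, 19.03 and 15.3 to 3.46, 4.77 and 5.15 CPM, 4.15-fold lower (log2 SE 0.27). Irf1, a factor of the interferon gamma response, was at 115, 82.2 and 118 CPM in wt and 77.8, 65.5 and 73.95 in the other group, without overlap, and did not pass (-0.54, adjusted p = 0.0713). Irf2, Irf3, Irf5 and Irf8 did not pass.

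The oligoadenylate synthetases make an RNA-like antiviral messenger upon binding double-stranded RNA. Oas2 (chromosome 5, 120730333 to 120749886) was at 29.4, 26.9 and 24.4 CPM in wt, 1037 counts, and had 0 counts in each of the 3 KO libraries. Set against a floor of 3 counts for the 3 KO libraries together, it was at least 300.02-fold lower, a bound for counting error only. Oas3 went from 45.3, 34.9 and 36.6 to 8.43, 7.803 and 7.72 CPM, 4.87-fold lower (SE 0.18 on the log2 scale, edgeR adjusted p = 1.06e-05). Its 3 values in the KO libraries differed from each other by less than 1 CPM. Oas1g, which has close paralogs that may share its reads, fell from 7.82 ± 2.58 to 0.591 ± 0.2303 CPM (mean and SD, n = 3 each). The relatives Oasl1 and Oasl2 were 9.75-fold and 2.004-fold lower. Oasl1 missed the threshold without wt 1, wt 3 or Jak1 KO 1 (adjusted p up to 0.166).

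Rtp4, whose antiviral product belongs to the receptor transporter family, went from 18.7, 24.6 and 18.7 to 1.205, 1.86 and 1.51 CPM, 13.6-fold lower. No KO value reached 2 CPM, and no wt value was under 18 CPM. Phf11d was 12.4-fold lower (15.2 ± 5.17 to 1.300 ± 1.09 CPM), Zbp1, a sensor of left-handed double-stranded nucleic acid, 4.795-fold, and Ifi44 3.65-fold. The enzymes that attach the ubiquitin-like protein ISG15 to its targets fell too. The activating enzyme Uba7 was at 406 ± 10.7 and 293 ± 32.6 CPM, and the conjugating enzyme Ube2l6 at 90.7 ± 28.5 and 42.4 ± 6.81. Isg15 itself stood at 8.16, 7.57 and 9.304 CPM in wt and 2.33, 3.73 and 5.06 in the other group, without overlap, and did not pass (-1.17, adjusted p = 0.168). The partners Parp9 and Dtx3l, an ADP-ribosyltransferase and a ubiquitin ligase, were 1.58-fold and 1.46-fold lower. Adar, which deaminates adenosine in double-stranded RNA, was 1.505-fold lower, and Slfn5 2.25-fold. The abundant Ifitm3, which restricts virus entry, and Ly6e fell from 216 to 144 and from 577 to 419 CPM, and the galectin gene Lgals9 from 295 to 217.

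Ifitm1, a neighbour of Ifitm3 in the same gene family, was not lower. It stood at 182, 170.0 and 242 CPM in wt and 260.2, 208 and 356 in the KO libraries, with overlap (0.47, adjusted p = 0.202, and 0.0398 with a term for sex). Mx1 (-3.77, SE 0.87, adjusted p = 0.0537) and Ifit1 (-1.20, adjusted p = 0.07298) came close to the threshold at low levels, 3.35 and 0.228 CPM for Mx1 and 11.8 and 5.11 for Ifit1. Some interferon genes had too few counts to be tested. For the chemokine Cxcl10 there were 44 counts in wt and 0 in KO, for Apol9a 30 and 0, for Apol9b 51 and 1, and for Ifi204 27 and 1. The number of effectors called was 9 without wt 1, 10 without Jak1 KO 1, 14 without wt 2 and 16 in the male libraries alone. Without wt 1, adjusted p was 0.0794 for Zbp1 and 0.0793 for Adar. Slfn5 was short of the threshold when wt 1, wt 2, Jak1 KO 1 or Jak1 KO 3 was left out (up to 0.207). Ube2l6 missed the threshold without Jak1 KO 1 (0.0571), Ly6e without wt 1 or Jak1 KO 1 (up to 0.0703), and Dtx3l without wt 1, Jak1 KO 1 or Jak1 KO 3 (up to 0.199). Uba7 and Lgals9 missed it without wt 1, wt 2 or Jak1 KO 1 (up to 0.141 and 0.173), and Parp9 without any wt library or Jak1 KO 1 (up to 0.154).

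Immunity-related GTPases act on membranes that enclose intracellular parasites. Iigp1 went from 64.5, 48.7 and 38.3 to 10.7, 6.17 and 10.9 CPM, 5.39-fold lower (edgeR adjusted p = 5.30e-05). Igtp went from 81.9, 55.4 and 57.04 to 22.97, 22.7 and 27.8 CPM, 2.65-fold, and Irgm2 from 69.5, 60.7 and 51.9 to 25.2, 17.7 and 26.9 CPM, 2.596-fold. No KO value reached a wt value for any of the 3 genes. Ifi47 was 1.83-fold lower and Gbp3, a guanylate-binding protein, 1.84-fold. The near-identical pair Tgtp1 (4.45-fold) and Tgtp2 (2.93-fold) fell too, with the caution that they share reads. Gbp3 and Tgtp1 missed the threshold without wt 1 or Jak1 KO 1 (up to 0.0703 and 0.0952).

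**Figure D2:**
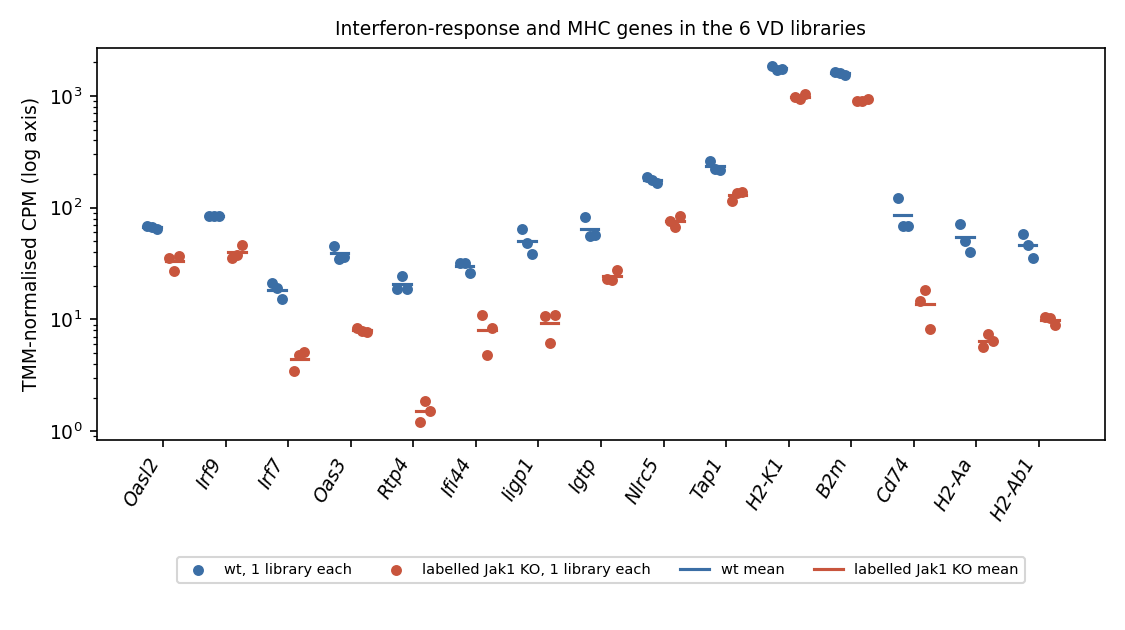
Normalised CPM on a log axis for 15 interferon-response and MHC genes, 1 point per library and a bar at the mean of each group of 3. For each of the genes drawn, all 3 KO libraries lie below all 3 wt libraries.

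Promoters of the lower genes were searched for the ISRE core GAAANNGAAA and the GAS core TTCNNNGAA, on both strands, from 250 bases before to 50 bases after the gene start (RefSeq, GRCm38.p6). The ISRE core was in 1079 of 27025 promoters in all (3.99%) and in 3.69% of the 10285 tested genes with a promoter. It was in 17 of the 74 lower genes with a promoter (23%), 12 of 32 in the interferon and MHC lists and 5 of 42 outside them (Gm12185, Gm12250 and Gm1966 among the 5), and in 1 of 39 higher genes (2.56%), Plk2. The GAS core was in 9.55% of all promoters, in 13 of the 74 lower genes (17.6%) and in 2 of the 39 higher genes (5.13%), Gimap6 and Spata13. A match describes the letters and is not a site shown to be bound. The stretches below show the match in capitals with 25 bases on each side where the window allows. They read 5′ to 3′ along the gene's strand. Shown are interferon genes of different families, class I genes, and Itga2b, Gp5 and Gp1bb of the platelet genes taken up further on.

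Oas3 (ISRE, chr5:120777700-120777759, minus strand): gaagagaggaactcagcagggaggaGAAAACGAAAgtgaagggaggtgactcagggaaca
Oas1g (ISRE, chr5:120887597-120887656, minus strand): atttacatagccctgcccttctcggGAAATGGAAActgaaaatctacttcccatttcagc
Igtp (ISRE, chr11:58199497-58199556, plus strand): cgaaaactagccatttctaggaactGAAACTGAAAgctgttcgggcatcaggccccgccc
Irgm2 (ISRE, chr11:58214888-58214947, plus strand): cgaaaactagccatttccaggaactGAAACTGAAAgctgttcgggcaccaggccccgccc
Tgtp2 (ISRE, chr11:49064248-49064307, minus strand): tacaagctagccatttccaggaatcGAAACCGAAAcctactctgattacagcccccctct
Gbp3 (ISRE on the other strand, chr3:142559974-142560033, plus strand): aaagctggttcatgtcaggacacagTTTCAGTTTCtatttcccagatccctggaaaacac
B2m (ISRE, chr2:122147523-122147582, plus strand): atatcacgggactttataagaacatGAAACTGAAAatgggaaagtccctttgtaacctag
H2-T23 (ISRE on the other strand, chr17:36032791-36032850, minus strand): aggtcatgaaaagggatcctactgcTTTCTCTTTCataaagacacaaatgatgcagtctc
Itga2b (ISRE, chr11:102469967-102470026, minus strand): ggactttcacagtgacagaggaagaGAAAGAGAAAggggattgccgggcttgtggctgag
Gp5 (GAS, chr16:30310974-30311031, minus strand): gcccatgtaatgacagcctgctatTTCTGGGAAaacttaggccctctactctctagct
Gp1bb (GAS, chr16:18622354-18622407, minus strand): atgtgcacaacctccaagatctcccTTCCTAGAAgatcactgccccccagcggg

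The stretches of the neighbouring genes Igtp and Irgm2 hold the same match, GAAACTGAAA, which B2m holds too. In Igtp it starts 34 bases before the gene start, in Irgm2 64, in Tgtp2 70 and in B2m 139. The match of Gp1bb starts 21 bases after its gene start. For Irf9, Irf7, Oas2 and Rtp4, among the strongest differences, the search gave no ISRE core. It gave neither core for the other lower genes of the platelet list, Pf4, Vwf, F2r, Serpine2, Sdpr and Gata1. Not every lower gene had a promoter to search, so this does not show that the letters are absent.

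MHC class I genes, which display peptides from inside the cell on its surface, were lower too. Of 27 tested members 11 fell, with a median log2 fold change of -0.46 and 23 below 0. H2-K1 (chromosome 17, 33996012 to 34000619) went from 1869.5, 1696 and 1736 to 978, 934 and 1034 CPM. B2m, the invariant light chain, went from 1641, 1596 and 1539.9 to 898, 899.5 and 939 CPM. The spread within each group was small beside the gap, and the fold changes were -0.85 (SE 0.08, edgeR adjusted p = 3.59e-05) and -0.80 (SE 0.07, 3.59e-05). Per kilobase of exon, H2-K1 was at 601 and 334 CPM in wt and in the KO libraries, and B2m at 1852 and 1061. H2-D1 was 1.65-fold lower, H2-Q4 1.87-fold, H2-Q5 2.61-fold and H2-T23 1.45-fold, and reads of these paralogs may be exchanged between them. RefSeq lists H2-Q5 as a transcribed pseudogene.

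Nlrc5, the transactivator of class I genes, went from 188, 178 and 166 to 75.9, 67.3 and 84.7 CPM, 2.33-fold lower (edgeR adjusted p = 1.24e-05). Tap1, which carries peptides into the endoplasmic reticulum, was 1.81-fold lower (234 ± 24.1 to 129 ± 13.3 CPM). The 3 catalytic subunits particular to the immunoproteasome fell by like amounts, with log2 fold changes of -0.64 for Psmb8, -0.66 for Psmb9 and -0.64 for Psmb10. H2-T23 and Psmb8 missed the threshold without wt 1 or Jak1 KO 1 (up to 0.0649 and 0.0605), and Psmb9 without wt 1, Jak1 KO 1 or Jak1 KO 3 (up to 0.125). The list had 12 calls without wt 2 and 8 without wt 1 or without Jak1 KO 1.

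MHC class II molecules show antigen to helper T cells, and 4 of 13 tested members of the list fell, with a median log2 fold change of -0.37 and 11 below 0. H2-Aa went from 71.4, 50.4 and 40.5 to 5.65, 7.34 and 6.39 CPM, 8.44-fold lower (edgeR adjusted p = 5.46e-06). H2-Ab1 went from 57.98, 46.7 and 35.8 to 10.5, 10.4 and 8.97 CPM and H2-Eb1 from 44.7, 22.9 and 19.4 to 3.84, 2.91 and 0.444. Cd74, the invariant chain, went from 122, 68.5 and 69.2 to 14.6, 18.4 and 8.26 CPM. In each of these 4 genes wt 1 was the highest library and the groups did not overlap. The other 9 tested members of the list did not pass. The transactivator Ciita was at 9.02, 13.9 and 4.77 CPM in wt and 3.09, 3.26 and 3.55 in the KO libraries (-1.47, adjusted p = 0.1104), and H2-DMa, a peptide-loading subunit, at 104, 79.2 and 86.3 and 61.1, 64.3 and 68.00 (-0.48, 0.0694). The list had 4 calls without wt 2 as well. Class II genes mark dendritic cells and B cells, whose lists had 0 members past the threshold with edgeR (2 of 7 and 1 of 10 at an unadjusted p under 0.05). The summed level of the dendritic cell list was 181 to 209 CPM in wt and 206 to 232 in the other group, with Xcr1 at 0 counts and Siglech at 1 and 0, and that of the B cell list 338 to 401 and 368 to 418.

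Outside the interferon and MHC lists, megakaryocyte and platelet genes were the list with the most lower genes. Many LT-HSCs carry transcripts of this lineage. Of 42 tested members 9 fell and 0 rose, with a median log2 fold change of -0.37 and 32 below 0. Pf4, a platelet chemokine (chromosome 5, 90772435 to 90773383), went from 214, 148 and 133 to 64.5, 57.9 and 44.9 CPM, 2.97-fold lower (SE 0.16 on the log2 scale, edgeR adjusted p = 9.43e-05). Vwf, which tethers platelets to injured vessels, went from 307, 312 and 290.0 to 176, 183 and 185 CPM, 1.67-fold lower (adjusted p = 0.000114). The values of Vwf were tight in both groups, with a wide gap between them.

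Itga2b, the integrin subunit CD41, went from 661, 497 and 545 to 318, 311 and 356 CPM (-0.79, edgeR adjusted p = 0.000745). F2r, the thrombin receptor, went from 202, 176 and 172 to 107, 99.7 and 112 CPM (-0.79, adjusted p = 0.000254). Gp5 and Gp1bb, subunits of the receptor for von Willebrand factor, were 1.85-fold and 2.499-fold lower. Serpine2, a thrombin inhibitor, was 2.57-fold lower (19.9 ± 3.26 to 7.74 ± 0.117 CPM), and Sdpr, a caveolar coat gene now named Cavin2, 1.58-fold. Gata1, a transcription factor of the erythroid and megakaryocyte lineages, went from 62.9, 58.5 and 49.8 to 30.6, 38.7 and 22.2 CPM (-0.91, adjusted p = 0.02300). Plek (-0.66, adjusted p = 0.0524) and Selp (-0.92, 0.127), a platelet protein kinase substrate and P-selectin, did not pass.

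The platelet list had 9 calls without wt 2 and 4 without wt 1, where Serpine2 (0.0703), Sdpr (0.0711), Gp5 and Gp1bb missed the threshold. Gp5 missed it also without Jak1 KO 1 (up to 0.105), Gp1bb without wt 2 (up to 0.0793) and Gata1 without wt 1, wt 2, Jak1 KO 1 or Jak1 KO 3 (up to 0.166). Pf4, Vwf, Itga2b and F2r passed in all 6 fits. Rap1b, P2ry1 and Mfsd2b are outside the list and were chosen after their values were seen. Rap1b, a small GTPase that activates integrins, fell from 552 ± 67.6 to 283 ± 9.73 CPM (-0.97, edgeR adjusted p = 6.50e-05), P2ry1, an ADP receptor, from 32.8 ± 0.168 to 18.4 ± 1.06, and Mfsd2b, a sphingosine-1-phosphate exporter of red cells and platelets, from 166 ± 26.4 to 83.5 ± 12.3. P2ry1 missed the threshold without wt 1 or Jak1 KO 1 (up to 0.0952). The platelet list's summed level was 5094 to 5802 CPM in wt and 4497 to 4642 in the KO libraries. Its part in the single results was not tested.

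**Figure D3:**
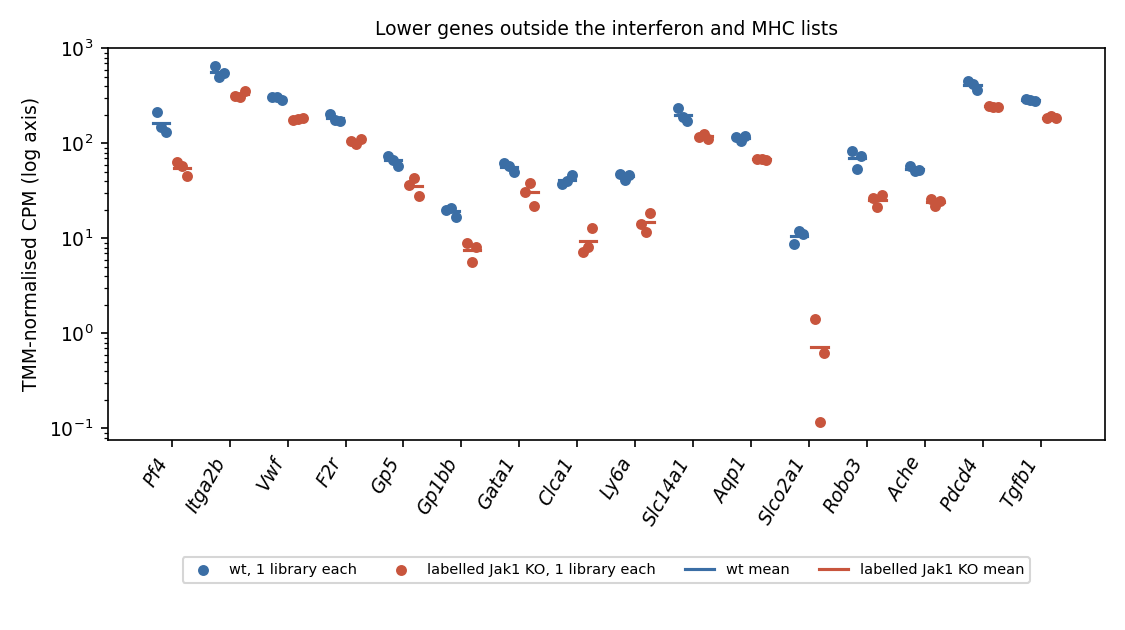
Normalised CPM on a log axis for 16 lower genes outside the interferon and MHC lists, 1 point per library and a bar at the mean of each group of 3. Vwf, Aqp1 and Tgfb1 are tight in both groups, and Slco2a1 spreads most within the KO libraries, from 0.116 to 1.43 CPM.

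Of the erythroid list 1 of 22 tested genes fell. This was Aqp1, a water channel, at 118, 106 and 119 CPM in wt and 68.2, 69.3 and 67.4 in the KO libraries (-0.75, edgeR adjusted p = 0.000649), and it passed in all 6 fits. Beta-s (-8.05, adjusted p = 0.0742) and Alas2 (-2.97, 0.183), the enzyme that starts haem synthesis, rested on wt 2, which held 239 CPM of Alas2 against 5.89 to 15.3 in the other 5. Without wt 2 both fold changes were above 0. Epor, the erythropoietin receptor, stood at 29.8, 29.1 and 26.1 and 17.1, 22.9 and 13.1 CPM, without overlap, and did not pass (-0.68, 0.134).

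Stem cell identity genes moved in both directions, with 2 lower, 3 higher and 57 not past the threshold among 62 tested (median 0.17). Clca1, listed today as Clca3a1, a regulator of calcium-activated chloride channels, went from 37.4, 40.1 and 46.9 to 7.15, 8.15 and 12.96 CPM, 4.39-fold lower (edgeR adjusted p = 8.03e-05). Clca2 to Clca6 had 0 counts in all 6 libraries. Its promoter holds an ISRE core. Ly6a, the gene of the surface antigen Sca-1 and known to respond to interferon, went from 47.7, 41.1 and 46.6 to 14.2, 11.6 and 18.5 CPM, 3.05-fold lower (adjusted p = 0.000197). Both genes passed in all 6 fits. The higher ones were Robo4, Hlf and Gimap6. Robo4, a guidance receptor that anchors LT-HSCs in marrow (chromosome 9, 37401902 to 37414023), went from 49.1, 51.8 and 53.3 to 84.2, 85.4 and 97.2 CPM, 1.73-fold higher (adjusted p = 0.001002), and also passed in all 6 fits. Hlf, a transcription factor of LT-HSCs, went from 452, 443 and 426 to 556, 571 and 615 CPM, 1.32-fold higher (adjusted p = 0.0282). Gimap6, a GTPase of the immunity-associated family, rose from 136 ± 9.38 to 199 ± 41.1 CPM. Hlf and Gimap6 passed only without Jak1 KO 2 among the 6 fits (up to 0.108 and 0.195 in the others). Fgd5 (55.2 and 80.4 CPM, 0.54, adjusted p = 0.168) and Mecom (134 and 168, 0.33, 0.0993) did not pass.

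Channels and transporters had 6 lower and 0 higher genes among 24 tested (median -0.08), Clca1, Aqp1 and Sdpr included. Slco2a1, a prostaglandin transporter, went from 8.65, 12.1 and 11.1 to 1.43, 0.116 and 0.621 CPM, 13.6-fold lower (edgeR adjusted p = 0.00155). Slc14a1, a urea transporter, went from 234, 189 and 170.4 to 117, 127 and 112 CPM, 1.66-fold, and Slc22a3, an organic cation transporter, from 176 ± 18.9 to 123 ± 11.3. The first 2 passed in all 6 fits, and Slc22a3 missed the threshold without wt 1 or Jak1 KO 1 (up to 0.173). Kcnj5, a potassium channel subunit, was at 12.8, 5.99 and 5.42 and 0.753, 1.75 and 3.02 CPM, without overlap (-2.14, adjusted p = 0.0716).

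Robo3, of the same receptor family as Robo4, went down, from 84.05, 53.8 and 74.2 to 26.7, 21.3 and 28.9 CPM (-1.46, edgeR adjusted p = 0.000295), where Robo4 went up. Ache, acetylcholinesterase, was 2.23-fold lower (53.9 ± 3.05 to 24.1 ± 2.07 CPM). Pde10a, a phosphodiesterase of cyclic nucleotides, was 3.15-fold lower. Pdcd4, an inhibitor of translation, went from 456, 423 and 367 to 249.8, 242 and 244 CPM (-0.76, adjusted p = 0.000327), the 3 values of the latter group being almost equal. Tgfb1, the cytokine TGF-beta 1, was at 296, 289.9 and 281 CPM in wt and 183, 193 and 186 in the KO libraries (-0.63, 0.000472), the only called gene of 33 tested in the TGF-beta, BMP, Notch and Wnt list. These 5 genes passed in all 6 fits.

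The transcription factors Runx3 and Zeb2 were 1.705-fold and 1.45-fold lower. Runx3 missed the threshold without wt 1 (0.0887) and Zeb2 without wt 1 or Jak1 KO 1 (up to 0.108). Plac8 was 2.88-fold lower (63.9 ± 11.1 to 22.3 ± 7.12 CPM), Tuba8, an alpha tubulin, 2.07-fold, Lphn1, an adhesion receptor now named Adgrl1, 1.48-fold and Tmsb4x, which binds actin monomers, 1.39-fold. Tmsb4x missed it without wt 1 or Jak1 KO 1 (up to 0.112). Ifi27l1, an older symbol of the interferon-inducible Ifi27, went from 77.7, 76.7 and 55.98 to 17.02, 9.78 and 20.5 CPM (-2.14, edgeR adjusted p = 8.12e-05), so genes outside the lists are not all unrelated to interferon. RefSeq lists Irgb2b1 as a synonym of Gm12185, Irgb10 of Gm12250 and Ifgga2 of Gm4951, names of interferon-inducible GTPases, so these 3 lower genes stand outside the lists by their symbols alone. Gm1966 and the noncoding AI504432 fell too. Of these 5 the largest difference was that of Gm12185, at 21.3, 13.2 and 12.7 and 2.86, 1.75 and 3.28 CPM. Ufsp1, Aspa, Endod1, Xpnpep1, Sla, Stip1, Incenp and Psme3 also fell, with log2 fold changes from -1.42 for Ufsp1 to -0.40 for Psme3. Endod1 passed in all 6 fits and the other 7 in 1 to 4 of them.

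Of 29 tested genes of the unfolded protein and heat shock list 3 fell, Sdf2l1 (-0.74), Hyou1 (-0.50) and Hsp90b1 (-0.37), all of the endoplasmic reticulum, and 23 were below 0 (median -0.26). Hsp90b1, the chaperone GRP94, was at 494, 431 and 463 CPM in wt and 355, 356 and 361 in the KO libraries. Hspa5, the chaperone BiP, was at 323 and 239.8 CPM and did not pass (-0.43, adjusted p = 0.0912). Rpn1, a subunit of the enzyme that attaches N-glycans (-0.46), and Spcs3, a subunit of the signal peptidase (-0.36), fell as well, and passed in 2 and 1 of the 6 fits without a library. The list's number of calls lay between 0 and 4 over the fits without a library, being 0 without Jak1 KO 1 or Jak1 KO 3 and 2 without wt 2.

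Ldha, lactate dehydrogenase A, fell from 568 ± 11.7 to 430.0 ± 32.7 CPM (-0.40, edgeR adjusted p = 0.0347). Cyc1, a subunit of respiratory complex III, was the only called gene of 75 in the nuclear respiratory chain list (-0.46, 0.0482), in which 70 lay below 0 (median -0.17). Etfb (-0.41), which passes electrons from fatty acid oxidation, Bcat2 (-0.54), which transaminates branched-chain amino acids, and Ctps (-0.59), which makes CTP, also fell. Ldha, Cyc1, Etfb, Bcat2 and Ctps each passed in 1 of the 6 fits without a library, the one without Jak1 KO 2, and adjusted p reached 0.235 in the others.

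Cell cycle lists lay slightly below 0. Of 65 tested G2 and mitosis genes 62 were below 0 with a median of -0.21, and 0 passed with edgeR (21 at an unadjusted p under 0.05). Of 56 S-phase genes 50 were below 0 with the same median, and 1 passed, the replication factor Mcm10 (-0.68, edgeR adjusted p = 0.0479). Of 50 MYC target genes 46 were below 0 (median -0.21), and Ldha alone passed. Mcm10 passed only without Jak1 KO 2 among the 6 fits (up to 0.184). For cytosolic ribosomal protein genes the median was -0.04, and edgeR called 0 of 80 (2 at an unadjusted p under 0.05).

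The 51 higher genes held none of the interferon or MHC lists, and most were of modest size. Igf1, which encodes insulin-like growth factor 1 (chromosome 10, 87858265 to 87937047), differed most by p. It stood at 1.53, 0.631 and 1.05 CPM in wt and at 8.36, 9.67 and 14.5 in the KO libraries, 9.72-fold higher (3.28 on the log2 scale, SE 0.44, edgeR adjusted p = 0.000702). The lowest KO value was more than 5 times the highest wt value. Genes known to be tied to insulin-like growth factors are given beside it, chosen after their values were seen. Igf2r, the receptor that clears IGF2, went from 33.7, 34.9 and 48.3 to 70.1, 55.2 and 62.5 CPM (0.69, adjusted p = 0.0496). H19, the imprinted noncoding RNA beside Igf2, went from 0.613, 0.631 and 0.728 to 5.57, 4.31 and 7.01 CPM, 8.47-fold higher (adjusted p = 0.0104). Plag1, a zinc finger factor known to activate Igf2, went from 15.2, 16.5 and 14.97 to 34.6, 23.3 and 37.6 CPM, 2.06-fold (adjusted p = 0.0134). Igf2 itself was at 0.982, 1.26 and 0.162 and 5.65, 0.699 and 3.55 CPM, with overlap (2.06, 0.277), and Igf1r, the receptor of IGF1, at 229, 219 and 227 and 279, 278 and 257, without overlap (0.27, 0.129). Meg3, another imprinted noncoding RNA, was at 8.28, 7.99 and 34.5 and 54.7, 25.5 and 50.2 CPM with overlap (1.37, 0.167).

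Of these, Igf1 passed in all 6 fits without a library. H19 missed the threshold without wt 1, Jak1 KO 1 or Jak1 KO 3 (up to 0.0849), Igf2r without wt 1, wt 2, Jak1 KO 1 or Jak1 KO 3 (up to 0.249) and Plag1 without wt 1, wt 3, Jak1 KO 1 or Jak1 KO 3 (up to 0.114). Endothelial and stromal genes, which mark cells known to make IGF1, had 0 of 14 members past the threshold with edgeR (2 at an unadjusted p under 0.05), with a summed level of 847 to 925 CPM in wt and 920 to 1074 in the KO libraries. For monocytes and macrophages it was 98.1 to 151 and 112 to 130, with 0 of 19 past the threshold and 2 at an unadjusted p under 0.05. Their part in the result was not tested. Growth factor and angiocrine receptors as a list had 19 of 20 tested members above 0 (median 0.35), of which Robo4 and Igf2r passed. Flt3, a receptor of multipotent progenitors, was at 28.2 and 41.9 CPM (0.57, adjusted p = 0.123), and Kit, the stem cell factor receptor, at 769 and 885 (0.20, 0.394).

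**Figure D4:**
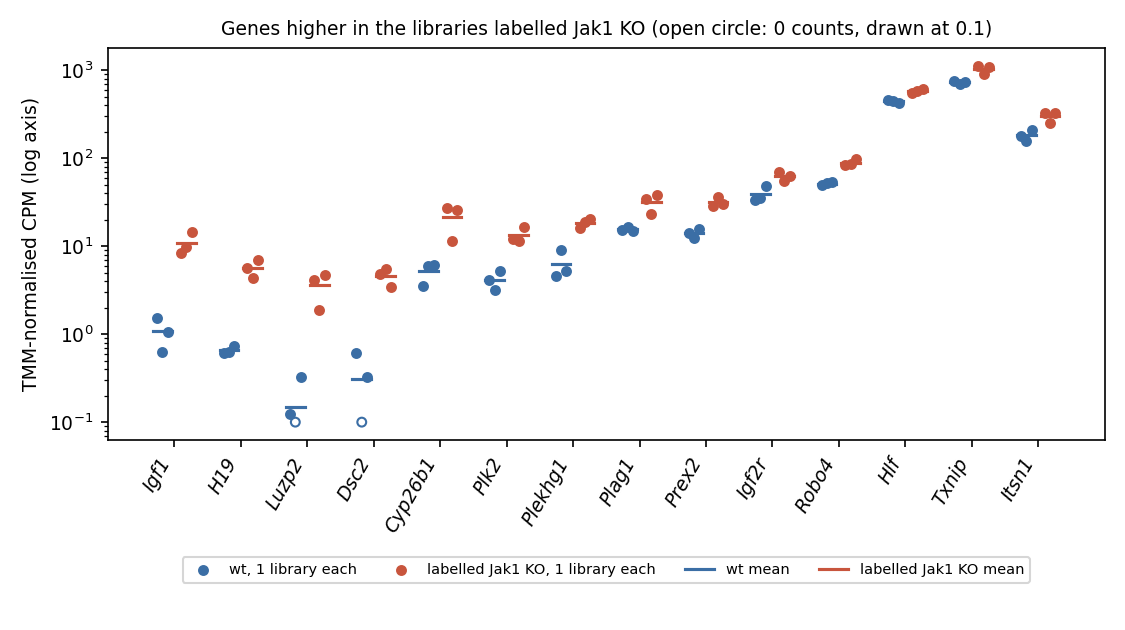
Normalised CPM on a log axis for 14 genes higher in the KO libraries, 1 point per library and a bar at the mean of each group of 3. Open circles are libraries with 0 counts (wt 2 for Luzp2 and Dsc2), drawn at 0.1. All 3 KO libraries lie above all 3 wt libraries for each gene.

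The higher genes outside the lists are given by their known roles, an order chosen after their values were seen and not tested as groups. Prex2, an exchange factor for Rac, went from 14.2, 12.5 and 15.5 to 28.2, 35.9 and 30.3 CPM, 2.23-fold higher (edgeR adjusted p = 0.00282), and passed in all 6 fits. Itsn1, an endocytic scaffold and Cdc42 exchange factor, went from 178, 158 and 209 to 324, 249.8 and 322 CPM (0.72, adjusted p = 0.004702). Plekhg1, a guanine nucleotide exchange factor, went from 4.601, 8.94 and 5.26 to 16.04, 18.9 and 20.2 CPM, 2.96-fold. Rtkn, a small GTPase effector, was 1.87-fold higher, Sgsm1, which holds a RabGAP domain, 2.11-fold, and the GTPase regulators Spata13 and Arhgap4 1.44-fold and 1.29-fold. Phldb2, which anchors microtubules at the cell cortex, was 2.36-fold higher, and Camsap3 and Clip3, which bind microtubules, 1.57-fold and 1.95-fold. Itsn1 missed the threshold without Jak1 KO 1 (0.0634) and Plekhg1 without wt 1 (0.0732). Rtkn, Sgsm1, Spata13, Phldb2, Camsap3 and Clip3 each missed it in at least 3 of the 6 fits and Arhgap4 in all 6 (adjusted p up to 0.249).

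Cyp26b1, which degrades retinoic acid, went from 3.497, 5.99 and 6.15 to 26.96, 11.3 and 25.5 CPM, 4.13-fold higher (edgeR adjusted p = 0.00459). Replicate 2 of the KO libraries was the lowest of that group, and still lay above every wt value. Plk2, a Polo-like kinase that p53 induces, went from 4.11, 3.15 and 5.18 to 12.2, 11.4 and 16.6 CPM, 3.21-fold (adjusted p = 0.0106), the only called gene of 30 tested in the p53 and BCL2 family list. Txnip, which inhibits thioredoxin and glucose uptake, went from 749, 693 and 726 to 1126, 892 and 1092 CPM (0.52, 0.0113). Pygm, muscle glycogen phosphorylase, was 2.04-fold higher. Cyp26b1 missed the threshold without Jak1 KO 1 (0.0637) and Pygm without wt 1 (0.05800). Plk2 missed it without wt 1, Jak1 KO 1 or Jak1 KO 3 (up to 0.0734) and Txnip without wt 1, wt 2 or Jak1 KO 1 (up to 0.132).

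Atp2b4, a plasma membrane calcium pump, was 1.37-fold higher. Ryr3, an intracellular calcium channel, went from 0.982, 0.315 and 0.971 to 2.86, 15.1 and 4.71 CPM, with library 2 of the latter group far above the other two. Pik3cd, the delta isoform of PI 3-kinase, was 1.46-fold higher, Lax1, an adaptor of lymphocyte signalling, 2.000-fold, and Map4k2 and Il16 1.47-fold and 1.32-fold. Pde3b, a cyclic nucleotide phosphodiesterase, was 1.78-fold higher, where Pde10a was lower. Each of these genes missed the threshold in at least 3 of the 6 fits (adjusted p up to 0.241), Ryr3 without any wt library or without Jak1 KO 2 (up to 0.131).

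Ezh1, a histone methyltransferase of Polycomb complexes, was 1.399-fold higher (61.3 ± 2.16 to 85.6 ± 7.33 CPM) and was the only called gene of 30 tested in the DNA methylation and Polycomb list. Nfat5, a factor of the osmotic response, was 1.304-fold higher, Bcl9l, a Wnt coactivator, 1.51-fold, and the zinc finger genes Znf512b and Zscan26 1.29-fold and 1.46-fold. Trib2, a pseudokinase, went from 6.503, 8.097 and 6.15 to 18.1, 25.97 and 10.8 CPM, 2.65-fold. These 6 genes passed in 1 to 3 of the 6 fits (adjusted p up to 0.268). Ezh1 passed only without Jak1 KO 2 and Trib2 only without Jak1 KO 3. Further higher genes were Klhl24, Adck3, Rassf2, Dennd1c, Fbxo11, Pcmtd2, Wbscr27, Ppfibp2, Diap2, Sytl1 and Ltbp4, with log2 fold changes from 0.42 for Klhl24 to 0.98 for Ltbp4. They passed in 1 to 3 of the 6 fits.

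Among the higher genes the largest fold changes were those of Luzp2 and Dsc2, which were near the floor of detection in wt, where Veph1 was low as well. Luzp2 was at 0.123, 0 and 0.324 CPM in wt and 4.14, 1.86 and 4.71 in the KO libraries, Dsc2, a desmosomal cadherin, at 0.613, 0 and 0.324 and 4.82, 5.47 and 3.46, and Veph1 at 1.04, 0.526 and 0.971 and 4.22, 4.43 and 6.48. In wt 2 both Luzp2 and Dsc2 had 0 counts, and 3 counts in that library would be 0.315 CPM. Their edgeR adjusted p-values were 0.0193, 0.0288 and 0.0441. Luzp2 passed in 2 of the 6 fits, Veph1 in 1 and Dsc2 in 0 (up to 0.166, 0.212 and 0.162).

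The genes called in VD were then measured in the ZL libraries, 3 wt and 3 labelled Jak1 KO, which took no part in choosing them. Of the 12689 genes tested in both sets, 6567 were below 0 in ZL. Of the 98 lower genes, 88 were below 0 and 50 had an unadjusted p under 0.05 in that direction, against 0.993% of those 12689. Their median log2 fold change in ZL was -0.92, beside -0.90 in VD. Of the 50 higher genes tested in ZL, 31 were above 0 and 3 had an unadjusted p under 0.05 in that direction (0.370% of all genes), Igf1, Luzp2 and Rgs7bp. Their median in ZL was 0.11, beside 0.76 in VD. With edgeR 0 genes passed the adjusted threshold in ZL fitted alone (126 lower and 47 higher of those 12689 had an unadjusted p under 0.05).

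Clca1 was at -2.14 in VD and -2.78 in ZL on the log2 scale, Itga2b at -0.79 and -1.34, Vwf at -0.74 and -1.21, and Irf9 at -1.08 and -1.58. H2-K1 was at -0.85 and -0.20 and B2m at -0.80 and -0.20, with unadjusted p of 0.583 and 0.599 in ZL (edgeR). In ZL, H2-K1 stood at 2907, 3374 and 2771 CPM in wt 4 to 6 and at 4167, 2022 and 1717 in Jak1 KO 4 to 6. B2m stood at 3846, 4918 and 3336 CPM and at 5547, 2969 and 2002. For both genes Jak1 KO 4 lay above every ZL wt library, while Jak1 KO 5 and Jak1 KO 6 lay below every one. Robo4, steady in VD, was at 0.79 and -0.26, and Igf1 at 3.28 and 0.84 (unadjusted p = 0.0346 in ZL). Rgs7bp, a membrane anchor of RGS proteins, was at 1.34 and 1.39, but 1 of the 6 fits without a VD library kept its call (adjusted p up to 0.222). The difference between the sets was tested as an interaction over all 12 libraries. It passed for 0 of 13982 genes with edgeR and for 1 with DESeq2, and 221 reached an unadjusted p under 0.05. Of the 149 genes called in VD, 18 had an unadjusted interaction p under 0.05, the smallest being that of Igf1 (0.000415). So with edgeR no difference between the sets was established for any single gene, Robo4 (0.107), H2-K1 (0.08896) and B2m (0.136) included.

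**Figure D5:**
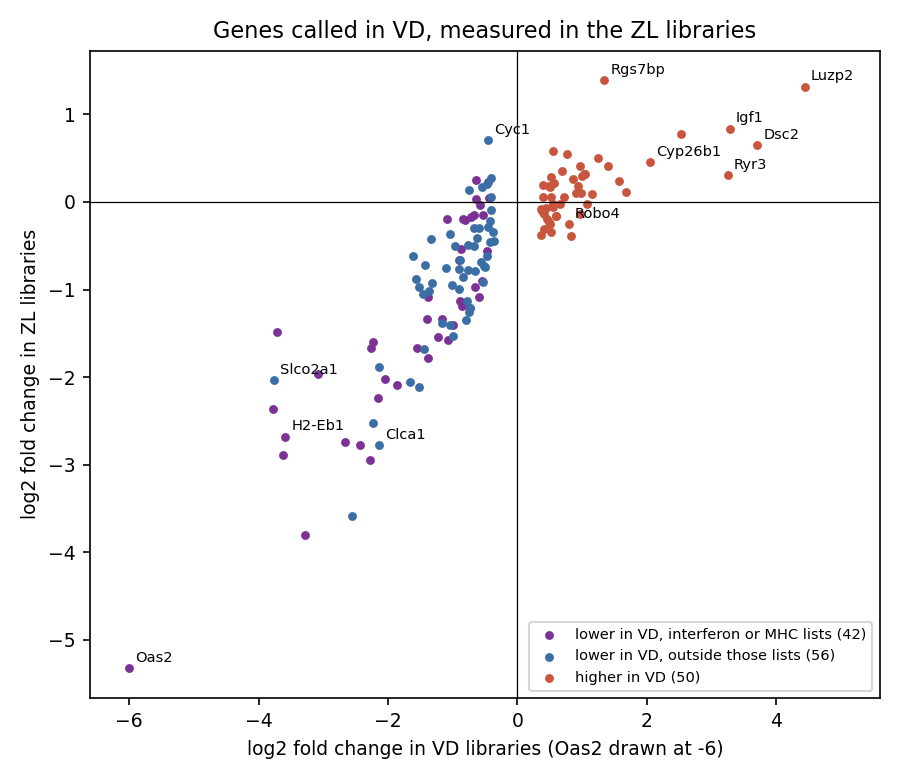
Each point is a gene called in the VD libraries, with its log2 fold change there on the x axis and its log2 fold change in the ZL libraries on the y axis. Of the 98 lower genes 88 lie below 0 in ZL, and of the 50 higher genes with a ZL value 31 lie above 0. Among all 12689 genes tested in both sets, 6567 lie below 0 in ZL. Oas2 is drawn at -6 on the x axis.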

How the data were processed

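Per the labels' protocols, TRIzol was used to extract LT-HSC RNA and the TruSeq version 2 poly-A kit to make libraries. The deposited table gives raw read counts per gene, whole numbers that the authors did not normalise. STAR 2.3.0e, Subread, featureCounts and the build mm10 are named in the submitters' processing notes. As annotation and strand setting are not given there, reads of overlapping, antisense and near-identical genes cannot be told apart.

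Columns were matched to samples by description and groups came from titles. The 6 VD libraries were fitted alone in R 4.3.3 with edgeR 4.0.16: filterByExpr on group, TMM scaling, the quasi-likelihood F test and Benjamini-Hochberg adjustment over all 12903 genes, threshold 0.05. CPM are TMM-normalised. The SE is the log2 fold change over the root of F, ± values are SDs, and intervals and floors (3 counts) cover counting error only where they rest on counts. Principal components and the permutation test used log2 CPM with a prior count of 2. No 2 libraries of a group agreed within sampling noise (lowest chi-square per degree of freedom 14.3). Of 23472 symbols 23311 matched RefSeq (GRCm38.p6, the assembly of mm10), 1648 as older symbols, and positions come from it. Exon lengths are GENCODE's. The scripts were tested on simulated data.

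The genes, lists and tests were chosen with earlier results of these data known. The naming rule took the JAK and STAT genes, per direction 15 genes by fold change and 15 by p outside the interferon and MHC lists (mean of at least 1 CPM, no uncharacterised models), up to 4 members per list and the interaction genes with the smallest p. Not all of these are printed and some are not reported here. Other names came from the 149 genes called or were chosen after their values were seen. Tried as alternatives were upper quartile and DESeq2 size factors, no filter on low counts, 1 CPM in 3 libraries, DESeq2 1.42.0, limma-voom with quality weights (limma 3.58.1), robust dispersion, the replicate block, a sex term, all 12 libraries, Rn45s left out, an exon length offset, other thresholds and each library left out.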

Additional observations from a re-analysis of the deposited data

How the results depend on the processing

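The number of genes past the threshold moved with the setting more than its direction did. Against 149 genes (98 lower, 51 higher), the count was 382 (223 and 159) with no filter on low counts, 403 (224 and 179) with DESeq2 and 411 (235 and 176) with limma-voom. It was 390 (226 and 164) with a term for sex, 283 (173 and 110) at an adjusted p of 0.1, and 61 (45 and 16) when a log2 change of at least 1 was required too. Estimating the VD effect with the spread of all 12 libraries left 24 calls (22 and 2). Over the fits that left out 1 library, the count ran from 62 to 305, with 56 to 194 lower and 6 to 111 higher. The replicate numbers did not pair the libraries by the rule used, since the correlations of same-numbered libraries were 0.07, 0.20 and 0.14 and not all above 0.1. Each library correlated best with the one of its own number, which hints at pairs, and with the replicate number as a block 390 genes passed (229 and 161). Those included 15 genes given with values as not past the threshold, the 16 that passed with a term for sex except Kcnj5. The other settings, those of scaling included, stayed within 1.5 times the counts.

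Jak1 passed with DESeq2 (log2 fold change 0.25, adjusted p = 0.0358) and in no other setting run. Over the fits without a library Beta-s ran from -8.64 to 0.76 and Alas2 from -3.53 to 0.60, the positive values being those without wt 2. They stood at 1.17 and 0.27 in the male libraries. No other gene given with values changed sign in any setting. The interaction of name set and genotype gave 0 calls in every edgeR fit, each library left out included, and 1 with DESeq2. Depth limits the low genes: 3 counts correspond to 0.179 to 0.334 CPM in these libraries, so that differences below that level were not detectable. The male libraries, those with Rn45s above 20% (replicates 1 and 2) and the interaction fits without single libraries were added after the data were seen.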

Other observations

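Lists of other cell types and processes held few calls. Neutrophil granule genes had 18 of 20 tested members above 0 (median 0.27), with 0 past the threshold with edgeR and 1 at an unadjusted p under 0.05, and summed levels of 791 to 1850 CPM in wt and 1069 to 1919 in the KO libraries. T cell and NK cell genes (0 of 8, with 2 at an unadjusted p under 0.05) and mast cell, basophil and eosinophil genes (0 of 6, with 0) held no call with edgeR. Lymphoid priming genes had 0 of 14 past the threshold with edgeR but 7 at an unadjusted p under 0.05 (median 0.21). Cholesterol and lipid synthesis genes had 0 of 32 past it with edgeR and 9 at an unadjusted p under 0.05 (median -0.17).

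For some genes that did not pass the threshold, values only are given. The stress pseudokinase gene Trib3 was at 10.2, 7.68 and 10.03 CPM in wt and 23.4, 9.08 and 25.9 in the KO libraries. Its groups overlapped (1.07, edgeR adjusted p = 0.134). The survival gene Bcl2l1 was at 59.02, 61.8 and 65.1 and 50.1, 28.8 and 37.8 (-0.67, 0.0786). Cdk6, a kinase that drives exit from dormancy, was at 121, 89.6 and 84.9 and 79.3, 52.2 and 65.96 (-0.58, 0.0993). Serping1, the C1 esterase inhibitor, was not tested in VD, with 59 counts in wt and 3 in the other group.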
